A study of Caenorhabditis elegans with 2 samples.

Results

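The genes described here are 47 genes of sensory cilia in the nematode Caenorhabditis elegans, out of 19985 protein-coding genes in the annotation. They were taken by name from a list and not by any measured value, but the list was chosen with earlier results of these data known. The 47 comprise 24 genes of intraflagellar transport, 7 genes of the Bardet-Biedl syndrome complex (BBS), 8 genes of the transition zone and 8 other cilia genes. Each gene was given a window from 2 kb upstream of its start to its end. A region belonged to the gene when its summit, the position of highest recovery named by the authors' caller, lay in that window. Chromatin had been recovered with an antibody against GFP from whole late embryos and sequenced (ChIP-seq). The line, OP677, carries the mutation unc-119(tm4063) on chromosome III and the transgene wgIs677, which adds GFP and FLAG to the C-terminal end of CHE-1. Both samples were pooled males and females, synchronized by bleaching of eggs and collected 6 hours later, and the labels number them as biological replicates 1 and 2 of a single group. Each replicate has a list of 30000 regions, a list called on both holds another 30000, and the 791 regions that passed the irreproducible discovery rate procedure (IDR, a test of whether replicates rank a region alike) are the highest 791 of that list. Regions were ranked within a list by the authors' signal, with rank 1 the highest. The depth of the libraries is unknown, no untagged strain was analysed here, and with 1 group no test was made.

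The tagged protein, CHE-1, is a zinc finger factor best known from the ASE neurons, a pair of taste neurons whose dendrites end in cilia. In C. elegans only sensory neurons are ciliated, and their cilia are built by intraflagellar transport, in which kinesin-2 motors carry the IFT-A and IFT-B particles towards the tip and dynein-2 carries them back. The BBS complex holds the particles together, and the transition zone at the base of the cilium gates what enters. Most of these genes are known as targets of DAF-19, the RFX transcription factor of C. elegans, which binds a promoter element called the X-box, an imperfect inverted repeat. An embryo holds few ASE neurons beside many other cells, so the lists describe chromatin of the whole animal.

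An X-box of 14 bases was found, on either strand between 500 bp upstream and 100 bp past the start, at 28 of the 47 cilia genes (59.6%, exact Clopper-Pearson 95% interval 44.3 to 73.6%), against 9.52% of all protein-coding genes. The sites of 12 genes (5 transport, 2 BBS, 2 transition zone and 3 other genes) are shown because they mark the promoter element against which the CHE-1 regions are placed below. Each is written 5′ to 3′ in 30 bases with the 14 bases of the match in capitals, from RefSeq assembly WBcel235.
daf-19: caattttgGTTTCCATGGAAACtacttcca
dyf-3: tgcagggaGTTTCTATGGGAACggaggaaa
daf-10: gcctgtgaATCTCCATAGCAACcaatgctt
che-11: cgagcaaaATCTCCATGGCAACcaaaacac
osm-6: atccacatGTTACCATAGTAACcactcatt
ift-74: tattacatGTTTCCATGGAAACggtgttcg
osm-12: cagctcatGTTGCCATAGTAACtcgacaac
bbs-5: taccaccgGTCTCCATGGCAACtctgctca
nphp-4: gacttctcATTTCCATGACAACcagcaccc
mks-3: cgcacaacATCACCATGACAACgtggttcg
tub-1: ctcacaaaATCTCCATGACAACgtggagcc
dyf-18: aagtcgttGTCTCCATGACAACtacatccg
Their matches lie at chrII:10169417-10169430 for daf-19, chrIV:3399198-3399211 for dyf-3, chrIV:9146260-9146273 for daf-10, chrV:12150761-12150774 for che-11, chrV:11927493-11927506 for osm-6 and chrII:6679970-6679983 for ift-74. Those of the BBS genes osm-12 and bbs-5 lie at chrIII:12202544-12202557 and chrIII:10261710-10261723, and those of the transition zone genes nphp-4 and mks-3 at chrV:11843780-11843793 and chrII:7583703-7583716. The sites of tub-1 and dyf-18 lie at chrII:8157107-8157120 and chrIV:11801235-11801248. All are written on the minus strand except that of ift-74. Of all 30 sites found at cilia genes, 23 matched on both strands, and for these the strand of the gene was kept.

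In all, 30 X-boxes were found at these 28 genes, since ift-74 and tub-1 have a pair each. Their centres lay from 255 bp upstream to 66 bp past the start, with a median of 53.5 bp upstream. By class an X-box was found at 16 of 24 transport genes, 4 of 7 BBS genes, 4 of 8 transition zone genes and 4 of 8 other genes. Another form of the consensus fixes more of the letters but also allows letters at a position the main form restricts. It was found at 22 of 47 cilia genes (46.8%), against 0.816% of all genes, and 3 of these (bbs-2, bbs-8 and arl-13) lacked the main form. The cilia genes thus differ from other genes in their DNA letters, which is known background for this family and was not measured by the ChIP.

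A summit of the IDR set lay in the window of 2 of 47 cilia genes, che-13 and daf-19 (4.26%, 95% interval 0.520 to 14.5%), against 4.29% of all genes. Among the highest 3000 regions of both replicates together, 6 of 47 had one (12.8%, 4.83 to 25.7%), namely osm-1, che-13, dyf-3, nphp-4, dyf-5 and daf-19, against 13.8%. In the whole list 34 of 47 had one (72.3%, 57.4 to 84.4%), against 60.2%. The windows of the cilia genes were longer, with a median of 7028 bp against 4026 bp over all genes, and held 3.12 summits per 10 kb against 3.09. In replicate 1 that density was 2.54 against 3.10, and in replicate 2 it was 2.59 against 3.09. With windows of one length, from 2 kb upstream to 500 bp past the start, 28 of 47 had a summit (59.6%, 44.3 to 73.6%), against 49.9%, and 5 of 47 (10.6%, 3.55 to 23.1%) had one among the highest 3000, against 10.1%. The intervals, which cover counting error over genes only, hold the share of all genes in each of these 5 counts.

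**Figure D1:**
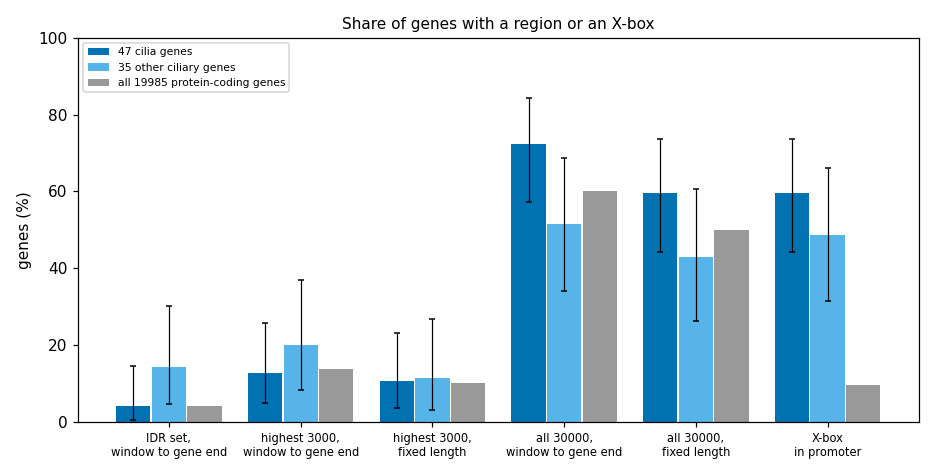
Share of genes (%) with a region of both replicates together, or with an X-box, for the 47 cilia genes, 35 other ciliary genes and all 19985 protein-coding genes. Bars start at 0 and error bars are exact 95% intervals; the cilia genes stand beside all genes for regions (4.26 against 4.29% for the IDR set), and far above them for the X-box (59.6 against 9.52%).

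Among genes with a region in the list of both replicates, the median best rank was 10818.5 for the cilia genes and 8759 for all genes. Placing genes without a region last gave 16324 and 20557, so the order of the medians depends on how these genes are counted. By class the median best rank was 11492 for transport genes (17 of 24 with a region), 5363 for BBS genes (5 of 7), 11823.5 for transition zone genes (6 of 8) and 5918.5 for the other genes (6 of 8). These classes were not ordered alike in the replicates. BBS genes had medians of 11626 in replicate 1 and 9385 in replicate 2, transport genes 7458 and 9015, and transition zone genes 15853 and 9338. No order of the classes is therefore read from them.

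**Figure D2:**
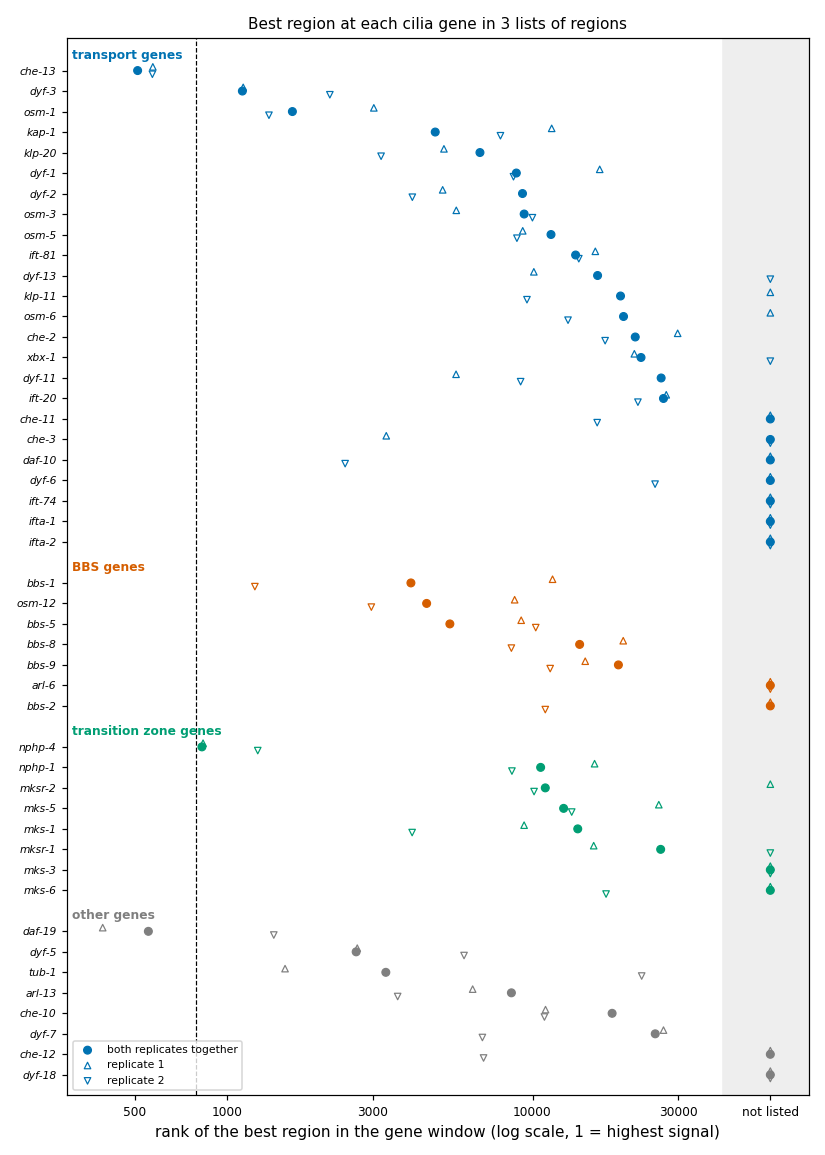
Rank of the best region in the window of each cilia gene (log scale, 1 is the highest signal) in the list of both replicates (filled circles), replicate 1 (upward triangles) and replicate 2 (downward triangles), by class, with genes without a region at the right edge. The dashed line marks rank 791, the end of the IDR set; che-13 and daf-19 lie left of it in the list of both replicates, and nphp-4 at rank 828 lies just right of it.

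The region at daf-19 was the one IDR region at a cilia gene whose nearest gene start was that gene's own. daf-19 encodes the RFX factor itself, the regulator of the transport genes. The region lay at chrII:10169311-10169794, with a signal of 148 and rank 553 in the list of both replicates. Its rank was 392 in replicate 1 (signal 105) and 1423 in replicate 2 (signal 51.4), so replicate 2 alone did not place it among its highest 791. The summit lay 207 bp upstream of the start, and 185 and 208 bp upstream in the replicates. No annotated non-coding gene lay within 100 bp, but the window of gpd-4, a glyceraldehyde-3-phosphate dehydrogenase gene, also holds this summit. The X-box of daf-19 lies inside the region in each of the 3 lists, centred 77 bp upstream of the start and 130 bp from the summit.

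The stretch that joins the summit of daf-19 to its X-box is shown first, as it carries the highest region near a cilia gene's own start. It runs for 197 bases from 257 to 61 bp upstream, at chrII:10169407-10169603 on the minus strand, with CGCACA and the X-box alone in capitals. It also holds the CHE-1 core named below (GAAACC or GAAGCC) at 3 places on the opposite strand, left in lower case and all 96 bp or more from the summit, one of them running into the X-box. Below it are the 101 bases around the summits at nphp-4 (chrV:11845010-11845110) and tub-1 (chrII:8158129-8158229), upstream regions ranked 828 and 3310. The upstream regions at che-13, dyf-3 and dyf-5, which rank higher than that at tub-1, are not printed. The stretches of nphp-4 and tub-1 are on the minus strand and hold none of the letters searched, the core included.
daf-19: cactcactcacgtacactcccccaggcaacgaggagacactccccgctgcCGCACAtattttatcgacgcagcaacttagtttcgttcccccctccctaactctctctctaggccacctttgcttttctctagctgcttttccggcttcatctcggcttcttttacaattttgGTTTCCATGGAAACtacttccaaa
nphp-4: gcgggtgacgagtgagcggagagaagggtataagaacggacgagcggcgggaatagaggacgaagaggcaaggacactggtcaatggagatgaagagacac
tub-1: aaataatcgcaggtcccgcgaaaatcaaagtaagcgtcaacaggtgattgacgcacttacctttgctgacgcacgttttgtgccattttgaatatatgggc
CGCACA was searched on both strands because it stood out in earlier results on these regions. It was found within 50 bp of the best summit of 1 of 34 cilia genes, daf-19, against 3.60% of all 30000 regions and 13.3% of the highest 791. The CHE-1 core described in ASE neurons, GAAACC or GAAGCC on either strand, was found at 2 of 34 (ift-20 and arl-13), against 8.56% of all regions and 6.19% of the highest 791. The X-box was at 0 of 34 such windows, against 1.14% of all regions. The median share of G and C was 41.1% in these 34 windows and 40.6% in all regions.

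daf-19 also had more regions of both replicates together than any other cilia gene but klp-20. In the list of both replicates 12 summits lay in its window of 13827 bp, with 9 in replicate 1 and 11 in replicate 2. Besides the region upstream, one in an intron 1474 bp past the start ranked 2820 (signal 82.3), at 2074 in replicate 1 and 13926 in replicate 2. Another, 408 bp upstream, ranked 4359, at 4159 and 17400 in the replicates. Both ranked far lower in replicate 2.

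The transport genes had 1 IDR region among 24 genes, 17 genes with a region of both replicates, and 7 with none. The IDR region was assigned to che-13, which encodes the IFT57 subunit of the IFT-B particle. It lay at chrI:10516977-10517460, with signal 154 and rank 510, and its ranks of 572 and 570 in the replicates were nearly equal (signals 85.6 and 70.2). Its summit lay 1633 bp upstream of che-13, within 100 bp of the snoRNA gene F59C6.15. The nearest protein-coding start was that of F59C6.18, 791 bp from the summit, and the windows of F59C6.18 and exos-3, which encodes a subunit of the RNA exosome, hold it too. The region is thus placed at che-13 by the window alone. The X-box of che-13, 13 bp past the start, lay in none of the regions of the 3 lists.

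dyf-3 had the highest transport region next to its own start. It encodes the CLUAP1 subunit of IFT-B. The region at chrIV:3399033-3399516 had signal 111 and rank 1123, and ranks of 1130 in replicate 1 and 2171 in replicate 2 (signals 64.6 and 45.6). Its summit lay 44 bp upstream of the start, and 89 and 50 bp upstream in the replicates. The window of pdhb-1, a pyruvate dehydrogenase subunit gene, holds the same summit. The X-box of dyf-3 lies 27 bp past the start and 71 bp from the summit, inside the region in each of the 3 lists.

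Other high transport regions lay inside genes. osm-1, the IFT172 subunit of IFT-B, had its best region in an intron 5228 bp past the start, at chrX:16545660-16546143, with rank 1637 and ranks of 3024 and 1372 in the replicates. kap-1, the accessory subunit of the heterotrimeric kinesin-2, had a region at chrIII:7338686-7339169 with rank 4803. Its summit lay in the 5′ UTR, 93 bp past the gene start and 66 bp upstream of another annotated transcript start of kap-1. Summits 91 and 85 bp past the start ranked 14236 in replicate 1 and 7851 in replicate 2. The best region of replicate 1, at rank 11551, had its summit in an intron 383 bp past the start. klp-20, a motor subunit of the same kinesin, had 14 regions in a window of 22459 bp, the best at rank 6728 in an intron. The lowest of the transport genes with a region was ift-20 of IFT-B, at rank 26821 (signal 35.4), where the last ranks of the list have a signal of 32.9. The other 11 transport genes with a region had best ranks from 8850 to 26355.

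Of the 4 IFT-A genes, 1 had a region of both replicates, namely dyf-2 at rank 9271, 1108 bp upstream. The nearest start to its summit was that of cul-2, 284 bp away, and the window of cul-2 holds it too. A region of replicate 1 overlapped it at rank 7333, and none of replicate 2 did. The best dyf-2 regions of replicates 1 and 2 lay elsewhere, 6455 and 9879 bp past the start. The other 3 IFT-A genes had no region of both replicates. che-11, the IFT140 subunit, and daf-10, the IFT122 subunit, had regions in replicate 2 only, and ifta-1 had none in any list. The best region of daf-10 ranked 2436 in replicate 2 (signal 44.0), 902 bp upstream at chrIV:9146871-9147354. In the list of both replicates the nearest summit to the start of daf-10 was 20858 bp away, and in replicate 1 it was 20894 bp away. A region within the highest 3000 of a single replicate was thus missing from the 30000 of the other lists.

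The 11 of 14 IFT-B genes with a region of both replicates had a median best rank of 13834. The 3 without one were dyf-6, which had a region in replicate 2 at rank 25177, and ift-74 and ifta-2, which had none in any list. ift-74, which forms a core pair with IFT-81, has X-boxes at 48 bp upstream and 21 bp past its start, and the nearest summits of both replicates together lay 3648 bp or more from them. Of the 6 motor genes 5 had a region, with the median at rank 9387. The exception was che-3, the dynein-2 heavy chain, whose best region was in replicate 1 only, at rank 3321 (signal 47.7) and 1976 bp upstream, just inside the window. xbx-1, the dynein-2 light intermediate chain, ranked 22647 with replicate 2 empty. osm-3, the homodimeric kinesin-2 of the ciliary tip, ranked 9387 with its summit 393 bp past the start. Its best region in replicate 1, at rank 5629, overlapped this one. That in replicate 2, at rank 9991, lay 3113 bp past the start and did not.

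The BBS genes had no IDR region (0 of 7, 95% interval up to 41.0%) and none among the highest 3000 of both replicates. The best was at bbs-1, a core subunit, in an intron 4041 bp past the start at chrI:14371803-14372286, within 100 bp of the non-coding RNA gene Y105E8A.49. It ranked 3999 (signal 74.5), with 11626 in replicate 1 and 1234 in replicate 2. osm-12, the BBS7 subunit, followed at rank 4502, in an intron 5170 bp past the start, with its best regions at 8738 and 2968 in the replicates. bbs-5 ranked 5363, in an intron 809 bp past the start, with 9180 and 10244. bbs-8 ranked 14260 and bbs-9 was last at 19098. Of these 5 genes 4 had their best summit more than 500 bp inside the gene, and with windows of one length, which leave such summits out, the median best rank of the 4 BBS genes with a region became 22547. bbs-2 had a region in replicate 2 only, 54 bp upstream at rank 11007, and arl-6, the small GTPase that works with the complex, had none in any list.

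The transition zone genes had no IDR region (0 of 8, 95% interval up to 36.9%), with nphp-4 closest to it. nphp-4, a nephrocystin of the transition zone, ranked 828 with a signal of 125, where the IDR set ends at 127. Its ranks were 835 and 1261 in the replicates (signals 73.0 and 53.3). The region lay at chrV:11844818-11845301, with its summit 1332 bp upstream of nphp-4 and within 100 bp of the non-coding RNA gene R13H4.11. The nearest start was that of hmp-1, the alpha-catenin of C. elegans, 811 bp away, and a further region of the same window ranked 3170. The X-box of nphp-4, 58 bp upstream of the start, lay 1274 bp from the nearest summit.

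The best regions of the remaining transition zone genes had ranks over 10000. nphp-1, the partner of NPHP-4, ranked 10629 with its summit 29 bp upstream of the start. Its best regions ranked 15959 in replicate 1, 202 bp upstream, and 8561 in replicate 2, 36 bp upstream. mksr-2, a B9 domain protein, ranked 11008, 1965 bp upstream in an intron of vha-11. Replicate 1 had an overlapping region at rank 6566 whose summit fell outside the window, so mksr-2 counted as not listed there. mks-5, a scaffold of the transition zone, ranked 12639, 306 bp past the start, with 25895 and 13433 in the replicates. The last was mksr-1, another B9 domain protein, at 26260 and with no region in replicate 2. mks-6 had a region in replicate 2 only, at rank 17401, and mks-3, a membrane protein of the transition zone, had none in any list, with the nearest summit of both replicates 5748 bp from its start.

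Of the 8 other cilia genes, daf-19 is described above, and dyf-5 and tub-1 came next. dyf-5, a kinase that limits the length of cilia, ranked 2647 with its summit 900 bp upstream, at chrI:9357925-9358408, and 2669 and 5968 in the replicates. tub-1, the tubby homolog, ranked 3310 with its summit 1234 bp upstream, at chrII:8157937-8158420. Its ranks of 1549 and 22760 differed 14.7-fold, the most of any cilia gene, and the nearest start was that of pch-2, 170 bp away. arl-13, a ciliary small GTPase, ranked 8527 with its summit 335 bp upstream, and 6368 at the same place in replicate 1. The best region of arl-13 in replicate 2, at rank 3619, had its summit 45 bp upstream. In the list of both replicates a summit 53 bp upstream ranked 18072. The last was dyf-7, needed to anchor the dendrite tip, at 25207. che-12, needed for the cilia of amphid neurons, had a region in replicate 2 only, at rank 6913 and 298 bp upstream, and the kinase gene dyf-18 had none in any list.

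**Figure D3:**
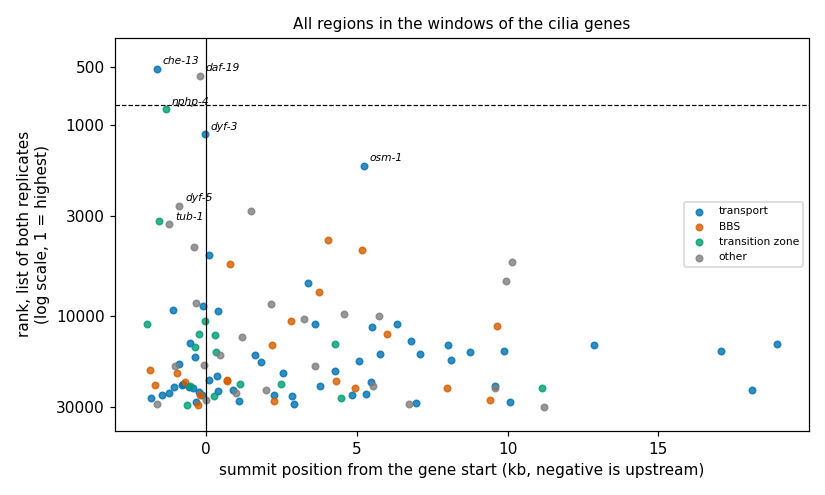
Position of every summit in the windows of the cilia genes (kb from the gene start, negative is upstream) against its rank in the list of both replicates (log scale, highest at the top), coloured by class. The dashed line marks rank 791; the summits at che-13 (1633 bp upstream) and daf-19 (207 bp upstream) are above it, and the summits are spread over the windows.

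Best summits of the cilia genes were spread over the windows. Of the 34, 10 lay more than 500 bp upstream, 6 up to 500 bp upstream, 5 within 500 bp past the start and 13 farther inside. Of all genes with a region, 33.5% had it in the first of these places, 21.5% in the next and 33.0% farther inside, beside 29.4, 17.6 and 38.2% of the cilia genes. Within 500 bp past the start were those of 1440 of all 12023 genes with a region and of 14.7% of the cilia genes. In their own gene 9 lay in an intron, 7 in a coding exon and 2 in a 5′ UTR, and 16 lay outside the gene. For 22 of 34 the nearest protein-coding start was the cilia gene's own, and 16 of 34 summits also lay in the window of another gene, so those regions cannot be told apart by gene. An annotated non-coding gene lay within 100 bp of 4 of the 34 summits, 1 of them the snoRNA at che-13. For the counts by gene part, nearest start, shared window and non-coding gene, no share over all genes is given. They are therefore not read as particular to the cilia genes.

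A summit of any rank within 500 bp of the gene start, on either side, was found in the list of both replicates at 21 of 47 cilia genes (44.7%), against 31.3% of all genes. In replicate 1 this was 19 of 47 (40.4%) against 31.5%, and in replicate 2 it was 16 of 47 (34.0%) against 31.1%. Over the replicates the share thus ran from about that of all genes to somewhat above it.

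Most X-boxes of cilia genes lay outside the regions of both replicates. Of the 28 cilia genes with an X-box, 7 (25.0%, 95% interval 10.7 to 44.9%) had one inside a region of both replicates, against 15.4% of the 1903 genes with an X-box in the genome. These were che-2, dyf-1, dyf-3, dyf-11, xbx-1, bbs-9 and daf-19. The regions at dyf-3 and daf-19 ranked within the highest 3000, and that at dyf-1 ranked 8850. The other 4, at che-2, dyf-11, xbx-1 and bbs-9, ranked from 21683 to 29122. In both replicates a region held the X-box at che-2, dyf-1, dyf-3 and daf-19, but at dyf-11 and bbs-9 in replicate 1 only, and at xbx-1 in neither. Among these 28 genes, which have the main form, the summit of both replicates nearest to its X-box was that of dyf-3, 71 bp away. The genes with only the other form, bbs-2, bbs-8 and arl-13, were left out here. Their X-boxes were centred 7 bp past the start and 22 and 52 bp upstream. In the list of both replicates arl-13 had a summit 53 bp upstream, at rank 18072. There the nearest summits at bbs-8 and bbs-2 lay 206 and 7493 bp from the start. In replicate 2 summits lay 54, 63 and 45 bp upstream of bbs-2, bbs-8 and arl-13. For 21 of the 28 genes no region of both replicates held the X-box. Among them, a region of replicate 1 alone held it at osm-5, osm-12 and mksr-1, and one of replicate 2 alone at dyf-2. At osm-12 the X-box was centred 13 bp upstream, and a summit of replicate 1 lay 10 bp upstream. At che-11 and daf-10 the nearest summit of both replicates was 36374 and 20913 bp away.

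**Figure D4:**
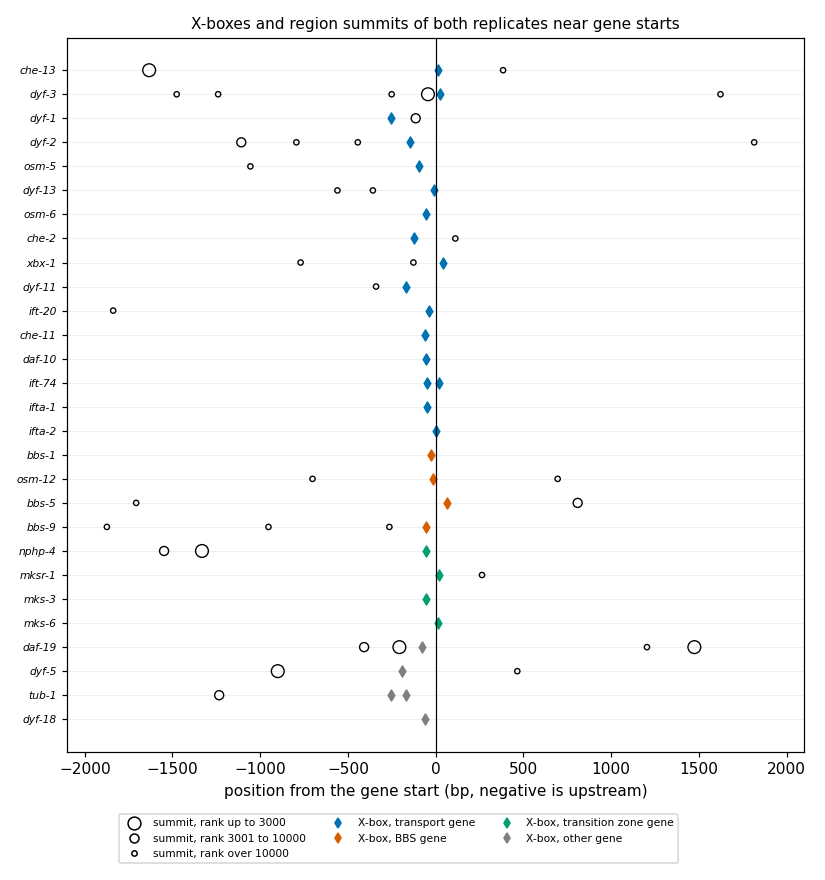
Position from the gene start (bp, negative is upstream) of X-boxes (diamonds, coloured by class) and of region summits of both replicates (circles, larger for higher ranks) at the 28 cilia genes with an X-box of the main form, within 2 kb of the start. X-boxes gather at the start, from 255 bp upstream to 66 bp past it, while summits are spread; those of dyf-3 and daf-19 lie 71 and 130 bp from the X-box.

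The cilia genes with the highest regions were in part the same in the replicates. Of 8 genes with a best rank up to 5000 in replicate 1 and 12 in replicate 2, 5 were common to both, namely osm-1, che-13, dyf-3, nphp-4 and daf-19. The others ranked lower in the other replicate, apart from che-3 and daf-10, which were not listed there. Replicate 1 had a region at 32 of 47 cilia genes (68.1%, 95% interval 52.9 to 80.9%), against 62.6% of all genes, and replicate 2 at 37 of 47 (78.7%, 64.3 to 89.3%), against 63.6%, which lies just below that interval. With windows of one length, a setting added after the data were seen, 28 of 47 had a region in replicate 1 (59.6%, 44.3 to 73.6%), against 51.2%. In replicate 2 it was then 27 of 47 (57.4%, 42.2 to 71.7%), against 51.7%, which lies inside the interval. In each replicate alike, 28 of 47 had one (59.6%), against 51.4%. Of the others, dyf-13, che-3, xbx-1 and mksr-1 had a region in replicate 1 only. Those with one in replicate 2 only were che-11, daf-10, osm-6, dyf-6, klp-11, bbs-2, mks-6, mksr-2 and che-12. The 6 with none in either were ifta-1, ift-74, ifta-2, arl-6, mks-3 and dyf-18 (12.8%, beside 25.1% of all genes). Among the highest 791 regions of replicate 1, 2 of 47 cilia genes had one, the same che-13 and daf-19 (4.26%), against 4.26% of all genes, and in replicate 2 only che-13 had one (2.13%), against 4.16%.

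**Figure D5:**
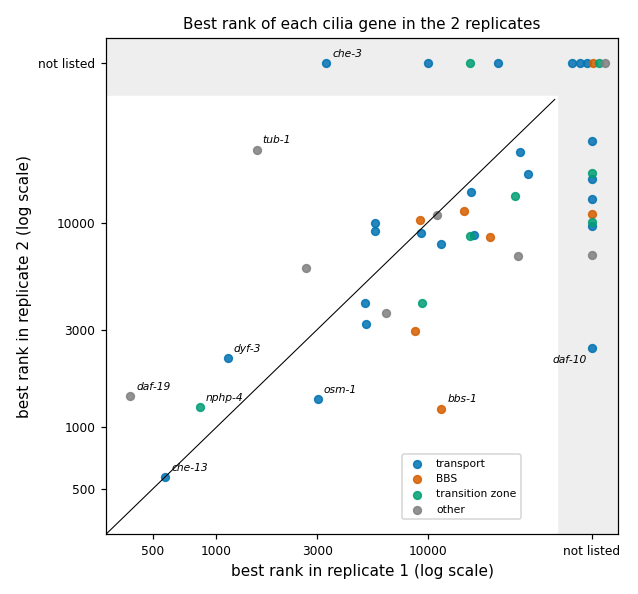
Best rank of each cilia gene in replicate 1 against replicate 2 (log scales), coloured by class, with genes that have no region in a replicate in the grey bands, where the 6 listed in neither are spread sideways. The line marks equal ranks; che-13 lies on it, tub-1 and bbs-1 lie far to either side, and daf-10 and che-3 had high ranks in 1 replicate only.

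For 17 of 47 cilia genes (36.2%, 95% interval 22.7 to 51.5%) the best regions of the replicates overlapped by at least 1 bp, against 26.5% of all genes. The larger of a gene's ranks was a median of 1.77 times the smaller over the 28 genes present in each, beside 1.84 times over all genes, and 9 of the 28 (32.1%) differed more than 2-fold, beside 4621 of the 10263 genes present in each. The 34 best regions of both replicates together were also sought in each replicate. A region overlapped 20 of them in each replicate, 8 in replicate 1 only, 5 in replicate 2 only and 1 in neither (dyf-11). All 10 that ranked up to 5000 were found in each replicate, as were 14 of 16 up to rank 10000 and 6 of the 18 beyond it, beside 97.6, 90.9 and 36.4% of all genes with a best region of such rank. Since the list of both replicates was made from the same reads, and the lists of the replicates share a control per the accompanying descriptions, this agreement is not independent.

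A further 35 genes known from cilia, none of them among the 47, were taken from a list of 36 names of which 35 matched the annotation. This list too was chosen with earlier results of these data known, so its shares cannot show an excess over all genes. A summit of the IDR set lay in the windows of 5 of 35 (14.3%, 95% interval 4.81 to 30.3%), against 4.29% of all genes, and 7 of 35 (95% interval 8.44 to 36.9%) had one among the highest 3000, against 13.8%. In the whole list 18 of 35 (51.4%, 34.0 to 68.6%) had one, against 60.2%, and an X-box was found at 17 of 35 (48.6%), against 9.52%. The 5 genes were tmem-107, ift-43, dyf-17, klp-6 and osm-9. The summit at tmem-107, a transition zone membrane protein gene, lay 50 bp upstream of its own start, with rank 236 (signal 251) and ranks of 260 and 240 in the replicates. That at ift-43, an IFT-A subunit gene, ranked 291, 1035 bp upstream and 640 bp past the start of mdt-26, with 243 and 321 in the replicates. Neither had a non-coding gene within 100 bp. The summits at dyf-17 (rank 151) and osm-9 (rank 280), a TRPV channel gene, were within 100 bp of a tRNA gene. That at klp-6 (rank 112), a ciliary kinesin gene, was within 100 bp of the non-coding RNA gene srpr-2.2. The part of the tRNA and other non-coding genes in these regions was not tested.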

How the data were processed

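CHE-1 ChIP-seq of 2 replicates was analysed from lists of regions deposited by the authors, in build ce11, whose coordinates fitted assembly WBcel235. Per the labels' accompanying descriptions, each list derives from alignments and a control that both replicates share, and includes background regions as input for IDR. For the caller, the aligner and the threshold of IDR, nothing is given in the sources used here. The deposited signal and the deposited q score of each region have no stated scale and served only to rank regions within a list. The ce10 lists and the text notes were not used for values. Depth is unknown.

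The 47 genes, their classes and the list of other ciliary genes were chosen with earlier results of these data known. Windows, ranks and exact intervals at 95% were computed with Python 3.11.15, numpy 2.4.6, pandas 2.3.3 and scipy 1.17.1 on Ensembl release 115, and figures with matplotlib 3.10.9. The window and motif searches were tested on simulated data. The letters of the X-box patterns were set before their matches were counted. Distances run from the annotated gene start to the summit or to the centre of an X-box. Named genes were those with an IDR summit, the 4 best and the worst of each class, and those without a region in some list. Of the 36 other ciliary names, 35 matched. No comparison between groups was possible with 1 group.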

Additional observations from a re-analysis of the deposited data

How the results depend on the processing

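The number of cilia genes with an IDR summit, 2, became 1 with windows from 1 kb upstream, 1 with summits given to the nearest start only, 1 without regions at tRNA or snoRNA genes, 0 in the highest 395 regions of the set and 4 in the highest 1582 of both replicates together. Leaving out a replicate gave 1 to 2. The median best rank of the cilia genes, 10818.5, became 13236.5 with windows from 1 kb upstream or of one length and 12639 with the nearest start only, and was 8661 to 9335.5 without a replicate. That of transport genes, 11492, became 12663 from 1 kb upstream, 13834 with windows of one length or without tRNA and snoRNA regions, and 15079 with the nearest start only, and was 7458 to 9015 without a replicate. That of BBS genes, 5363, became 22547 with windows of one length and 10692 with the nearest start only, and was 9385 to 11626 without a replicate. The 17 genes whose best regions overlapped between replicates became 9 when summits had to lie within 100 bp. For the median of all cilia genes and that of transition zone genes, 9338 to 15853 without a replicate, the other settings moved the value by less than the spread between replicates. The counts of 34 genes with a region, 6 with one of the highest 3000 and 28 with an X-box stayed within 1.5 times, without a replicate at 32 to 37 and 6 to 8. The cause of these shifts was not tested. No paired analysis was possible because there is 1 group.

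Depth is unknown, so a gene without a region was not listed, which does not show that nothing was recovered there. No untagged strain was analysed here, 2 replicates give no spread of their own for a single rank, and regions in the windows of several genes cannot be told apart.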
